A study of Mus musculus with 9 samples.

Results

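The E2F transcription factors and the RB proteins that bind them were followed through photodynamic treatment of mouse B.END3 cells, a brain microvessel line labelled as endothelial. The group was chosen by gene name and comprised 10 of the 54532 listed genes, namely E2f1 to E2f8, Rb1 and Rbl1. All 10 passed the filter on low values, Rb1 only through treated libraries, and were among the 11727 genes tested. Groups of n = 3 libraries were compared. Control cells (Ctrl) were labelled untreated. Ep1 cells were incubated with the photosensitizer porfimer sodium at 300 µg/mL for 90 min and exposed to a 635 nm laser at 100 mW/cm2 up to a light dose of 10 J/cm2. Ep2 cells received the same photosensitizer and laser up to 20 J/cm2. No library with the photosensitizer alone or the laser alone was analysed here, so both agents together make up each difference from Ctrl, and the time between irradiation and harvest is not given in the sources used here. The labels give the strain C57BL/6 and do not say whether the libraries came from separate cultures, so p-values measure the spread between these libraries only.

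E2F factors bind the promoters of genes for DNA replication and cell division. E2F1, E2F2 and E2F3 are classed as activators. E2F4 and E2F5 repress together with pocket proteins, E2F6 represses through Polycomb-type complexes, and the atypical factors E2F7 and E2F8 repress without a DP partner. RB (encoded by Rb1) and p107 (encoded by Rbl1) are pocket proteins that hold E2F factors inactive until cyclin-dependent kinases phosphorylate them. Several E2F genes are themselves E2F targets. The mRNA measured here does not report the phosphorylation of the pocket proteins or the amount of any factor on DNA.

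Start site sequences are given first for the members whose window held an E2F letter pattern, because genes of this family are known to regulate each other. RefSeq start sites were matched for 7 of the 10 members. The windows ran from 250 bases before to the bases just after a start site, 300 bases in all, and both strands were searched for the pattern TTCGCGC and its variants, of which 1 reads TTGGCGC, another TTCCCGC and the last TTGCCGC. At least 1 pattern was found for 5 of the 7 members, and it was found for 10.9% of all 27025 genes with a window. The 250 bases before the start site (GRCm38.p6, RefSeq, 5′ to 3′ on the strand of the gene) are at chr2:157204535-157204784 on the minus strand for Rbl1, chr7:48881597-48881846 on the minus strand for E2f8, chr10:110745189-110745438 on the plus strand for E2f7 and chr13:29986064-29986313 on the minus strand for E2f3. Capitals mark the E2F pattern, which reads as its reverse complement where it lies on the other strand.
Rbl1: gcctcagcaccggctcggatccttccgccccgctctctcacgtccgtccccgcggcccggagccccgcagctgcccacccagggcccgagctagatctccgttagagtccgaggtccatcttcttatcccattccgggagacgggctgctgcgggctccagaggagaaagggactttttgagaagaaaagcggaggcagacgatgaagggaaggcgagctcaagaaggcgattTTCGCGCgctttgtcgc
E2f8: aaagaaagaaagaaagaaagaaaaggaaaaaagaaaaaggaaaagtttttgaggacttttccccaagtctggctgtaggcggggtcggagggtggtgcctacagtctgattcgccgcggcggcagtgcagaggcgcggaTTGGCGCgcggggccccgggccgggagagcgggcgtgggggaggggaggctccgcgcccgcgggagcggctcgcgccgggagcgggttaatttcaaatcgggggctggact
E2f7: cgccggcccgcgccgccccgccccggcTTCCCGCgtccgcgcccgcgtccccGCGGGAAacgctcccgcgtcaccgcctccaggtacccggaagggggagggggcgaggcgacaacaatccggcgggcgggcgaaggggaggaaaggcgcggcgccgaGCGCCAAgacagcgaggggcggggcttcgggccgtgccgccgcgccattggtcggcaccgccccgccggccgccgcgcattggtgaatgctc
E2f3: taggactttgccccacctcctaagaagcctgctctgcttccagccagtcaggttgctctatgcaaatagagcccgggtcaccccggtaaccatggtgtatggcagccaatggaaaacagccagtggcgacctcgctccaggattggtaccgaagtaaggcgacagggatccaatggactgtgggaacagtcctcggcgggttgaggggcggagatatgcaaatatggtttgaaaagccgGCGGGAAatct
The match of Rbl1 lay at -17 to -11 relative to the start site, which is position 0, and that of E2f8 at -111 to -105. E2f7 held 3 matches, at -223 to -217, -198 to -192 and -92 to -86. E2f3 held 1 before the start site, at -11 to -5, and 1 after it, at 18 to 24. The match of E2f2 lay after the RefSeq start site, at 40 to 46. The deposited table begins this gene further on, at 136172394, so the match lies before the gene as placed there. Another window of E2f2 and another of E2f3 held no E2F pattern. The 30 bases around the match of E2f2 are at chr4:136172294-136172323 on the plus strand.
E2f2 site: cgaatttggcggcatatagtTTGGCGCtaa
The windows of E2f1 and E2f6 held none of these letters, and the start site listed for E2f1 lies inside the gene as the deposited table places it. A match describes letters only and is no measured binding site.

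In the untreated cells E2f4 was the most abundant member and Rb1 the least. Levels are FPKM, which is scaled per gene length and per library and can be compared between genes. E2f4 stood at 59.6 ± 3.04 (SD) and E2f1 at 26.5 ± 0.717. Below them came E2f3 at 13.7 ± 0.152, E2f6 at 12.2 ± 0.376, E2f8 at 11.1 ± 0.431, E2f2 at 10.1 ± 0.444 and Rbl1 at 9.75 ± 0.654. E2f5, E2f7 and Rb1 were lower, at 5.22 ± 0.161, 4.82 ± 0.198 and 0.911 ± 0.161. In this order E2f2 and Rbl1 were the only neighbours whose Ctrl libraries overlapped. Rb1 rested on as few as 86 fragments in a library, and E2f4 on 1787 to 2926. Rbl2, the third pocket protein gene and no member of the group, was named after its values were seen. Its mean FPKM was 3.35 ± 0.187 without treatment, 3.24 ± 0.358 at the lower and 3.10 ± 0.325 at the higher dose, and was not called in any comparison.

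**Figure D1:**
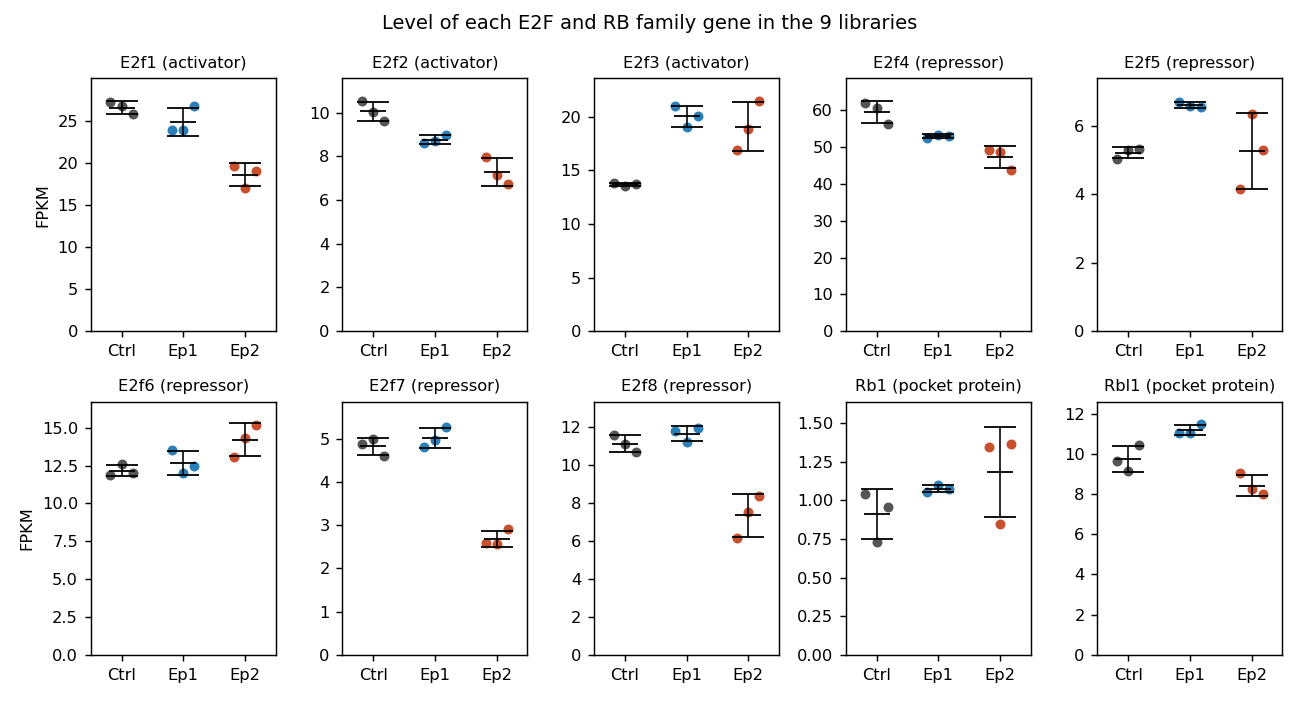
FPKM of the 10 genes in each library, 1 panel per gene with its own axis from 0, with points for the 3 libraries of Ctrl, Ep1 and Ep2 and black bars for the group mean and 1 SD to each side. E2f3 sits higher in both treated groups, E2f1, E2f2, E2f4, E2f7 and E2f8 sit lowest in Ep2, and Rbl1 sits above Ctrl in Ep1 and below it in Ep2.

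Depth lay between 16240688 and 19509225 fragments per library and overlapped between groups. The number of genes above 0 was 19935 to 20146 in Ctrl and Ep1 libraries and 20375 to 20981 in Ep2 libraries. Markers did not match the endothelial label. Of 12 endothelial markers, 9 were below 1 FPKM in every library, Pecam1 reached at most 0.242, and Emcn and Erg were at 0. Their summed level, mostly Flt1, was 9.45 to 9.67 in Ctrl, 9.43 to 10.8 in Ep1 and 13.0 to 14.1 in Ep2. The epithelial keratins Krt8 and Krt18 lay at 562 to 714 and 231 to 332. Summed over 5 epithelial markers, the level was 1029 to 1081 in Ctrl, 937 to 1041 in Ep1 and 1155 to 1372 in Ep2. Keratins made up nearly all of this sum, as Epcam reached at most 2.03 FPKM and Cdh1 at most 0.103. The part of these shifts in the changes of the E2F genes was not tested.

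At 10 J/cm2 E2f3 rose, and the other 9 members were not called (adjusted p below 0.05 from limma). The count of 1 depended on the fit. With voom on fragments 3 members were called (E2f2, E2f3 and E2f4), beside 1946 of 14112 genes in all. With only the 2 groups fitted 5 were called (also E2f5 and Rbl1), beside 2217 of 11345 genes. In the main fit, 1 of 10 stands beside 1324 of 11727, or 11.3%, called among all genes tested (6.32% higher and 4.97% lower). At an unadjusted p under 0.05 there were 5 members, for which no share of all genes was computed. The libraries of Ep1 and Ctrl did not overlap for 6 of 10, beside 41.3% of all tested genes. These 6 include Rb1, which passed the filter only through treated libraries.

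At 20 J/cm2 8 of the 10 members were called, 6 lower and 2 higher, beside 53.2% called in all (29.3% lower and 23.9% higher). Activators and repressors were found on both sides. Among activators E2f1 and E2f2 fell and E2f3 rose. Among repressors E2f4, E2f7 and E2f8 fell and E2f6 rose, while E2f5 was not called. Of the pocket proteins Rbl1 fell and Rb1 was not called. Only E2f7 had an absolute log2 fold change above 0.6, the size used here for a differentially expressed gene (DEG), a mark reached by 9.17% of all tested genes. E2f8 also passed it with a pseudocount of 0.1, at -0.601, and without Ep2 replicate 3, at -0.63. The libraries did not overlap for the same 8 members, beside 59.7% of all tested genes. In bulk RNA, fewer cells of a kind, such as cells in S phase, and less RNA per cell cannot be told apart. All fold changes are on the log2(FPKM + 1) scale, which understates the change of low genes.

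Between the light doses, 7 members were called lower in Ep2 than in Ep1, beside 44.0% of all tested genes called and 25.2% called lower. The libraries of the treated groups did not overlap for the same 7 members, beside 54.4% of all tested genes. The 3 comparisons share libraries, so their values are given side by side and are not independent of each other.

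**Figure D2:**
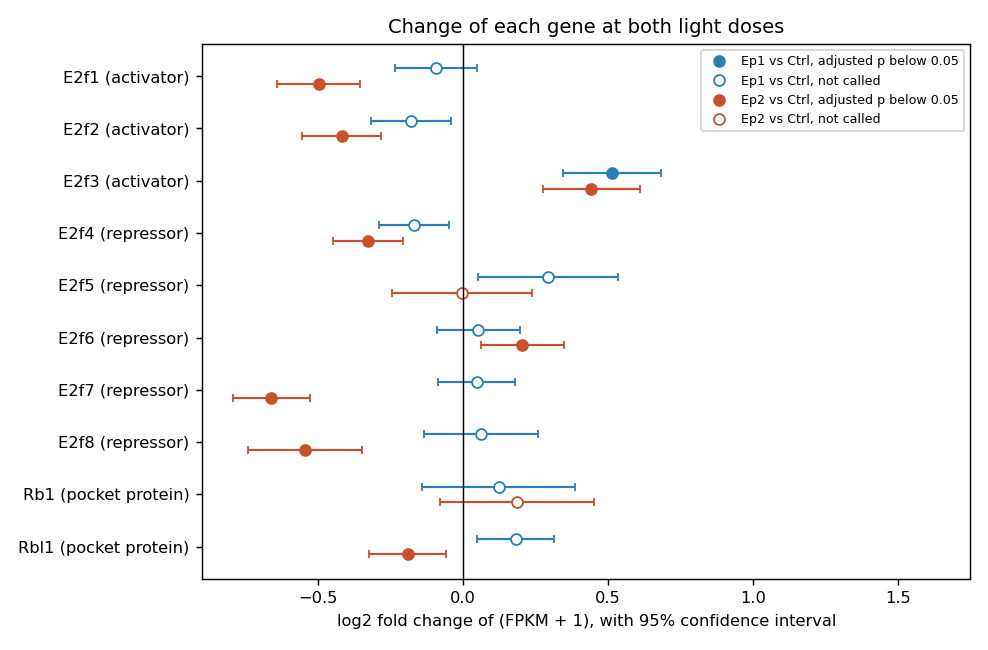
Log2 fold change of (FPKM + 1) on the horizontal axis for each of the 10 genes, for Ep1 (blue) and Ep2 (red) against Ctrl, with 95% confidence intervals from the limma fit and filled points for an adjusted p below 0.05. In Ep1 only E2f3, at 0.51, is filled, and in Ep2 the filled points run from -0.66 for E2f7 to 0.44 for E2f3.

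Among the activators, E2f1 lost transcript at the higher dose. E2f1 (ENSMUSG00000027490, chr2:154559407-154569892, minus strand, GRCm38) drives entry into S phase and can also promote apoptosis. Its FPKM was 27.2, 26.7 and 25.8 in the Ctrl libraries, 23.9, 23.9 and 26.8 in Ep1, and 19.6, 17.0 and 19.0 in Ep2. All Ep2 libraries lay below all Ctrl and Ep1 libraries, whereas Ep1 and Ctrl overlapped. The mean fell by 30.1% in Ep2, a log2 fold change of -0.50 (95% confidence interval -0.64 to -0.35, adjusted p = 0.000174). In Ep1 the log2 fold change was -0.09 (-0.24 to 0.05, adjusted p = 0.361). From Ep1 to Ep2 it was -0.40 with an adjusted p of 0.000844.

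E2f2 (ENSMUSG00000018983, chr4:136172394-136196057, plus strand) is a close relative of E2f1 with overlapping target genes. The Ctrl libraries gave 10.5, 10.0 and 9.63 FPKM, the Ep1 libraries 8.62, 8.70 and 8.98, and the Ep2 libraries 7.97, 7.15 and 6.75. The 3 groups did not overlap and stood in the order of the light dose. No share of all genes was computed for this pattern. Non-overlap by itself was common, at 41.3% of tested genes for Ep1 against Ctrl, 59.7% for Ep2 against Ctrl and 54.4% between the doses. The log2 fold change was -0.18 in Ep1 (-0.32 to -0.04), which was not called at an adjusted p of 0.0867. It was -0.42 in Ep2 (-0.55 to -0.28, adjusted p = 0.000377), and the step from Ep1 to Ep2 was -0.24 (adjusted p = 0.0108).

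E2f3 went the other way at both doses. E2f3 (ENSMUSG00000016477, chr13:29906575-29986063, minus strand) encodes long and short forms from separate start sites, which a value per gene does not resolve. Its FPKM was 13.9, 13.6 and 13.7 in Ctrl, 21.0, 19.0 and 20.1 in Ep1, and 16.9, 18.9 and 21.4 in Ep2. Every treated library lay above every Ctrl library, and the treated groups overlapped each other. The mean was 46.1% higher in Ep1, with a log2 fold change of 0.51 (0.35 to 0.68, adjusted p = 0.00795). It was 39.2% higher in Ep2, with a log2 fold change of 0.44 (0.27 to 0.61, adjusted p = 0.000906). The difference between the doses was -0.07 (-0.24 to 0.10, adjusted p = 0.471).

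The make-up of the activators shifted from E2f1 towards E2f3, and the levels of these genes came closer together. Of the summed activator FPKM, E2f1 held 52.7% ± 0.322 in Ctrl, 46.3% ± 1.64 in Ep1 and 41.3% ± 2.44 in Ep2. E2f3 held 27.3% ± 0.606, 37.4% ± 1.68 and 42.5% ± 3.91. The ratio of E2f3 to E2f1 was 0.508 to 0.533 in the Ctrl libraries, 0.751 to 0.879 in Ep1 and 0.863 to 1.13 in Ep2. Both treated groups were thus above Ctrl in every library, and in Ep2 the levels of E2f3 and E2f1 overlapped.

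**Figure D3:**
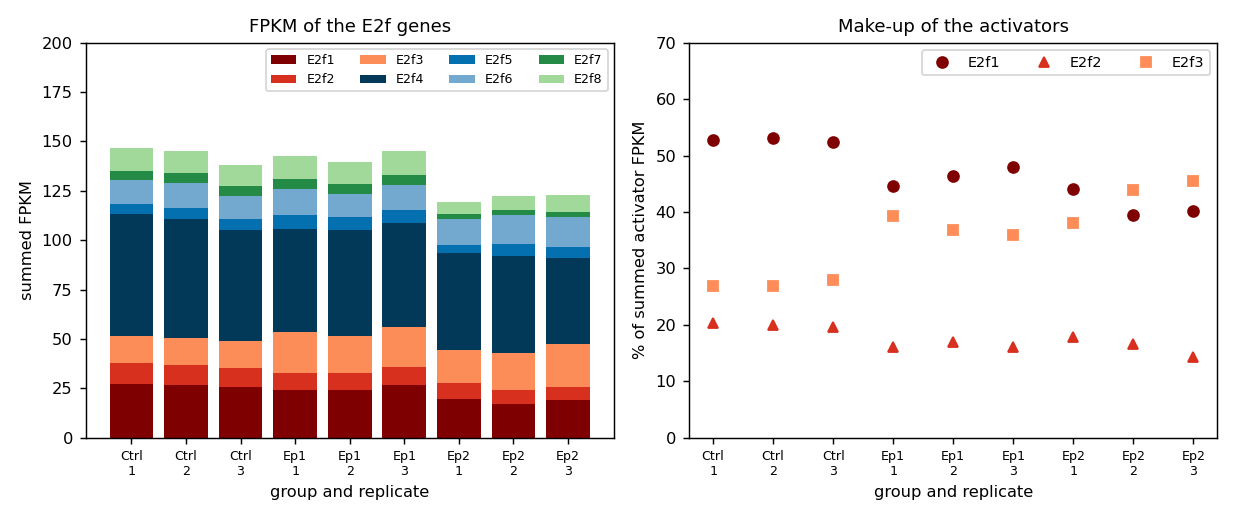
Left, FPKM of E2f1 to E2f8 stacked for each library, with the vertical axis from 0. Right, the percent of the summed activator FPKM held by E2f1, E2f2 and E2f3 in each library, with E2f1 at 52.7% on average in Ctrl and 41.3% in Ep2 and E2f3 at 27.3% and 42.5%.

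Of the repressors that work with pocket proteins, E2f4 fell and E2f5 was not called against Ctrl at either dose. E2f4 (ENSMUSG00000014859, chr8:105297663-105305370, plus strand) is the main E2F of resting cells and part of the DREAM complex. Its libraries gave 61.9, 60.7 and 56.1 FPKM in Ctrl, 52.3, 53.4 and 52.9 in Ep1, and 49.1, 48.8 and 43.9 in Ep2. As for E2f2, the 3 groups did not overlap and stood in the order of the dose, a pattern whose share of all genes was not computed. The log2 fold change was -0.17 in Ep1 (-0.29 to -0.05, adjusted p = 0.0732) and -0.33 in Ep2 (-0.45 to -0.21, adjusted p = 0.000744). The step from Ep1 to Ep2, -0.16, was called at an adjusted p of 0.0352, and this call was lost with median centring (0.136), without the filter (0.0856), with voom on fragments (0.0837), or without any one Ep1 library (0.0651 to 0.0945) or Ep2 replicate 3 (0.0980).

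E2f5 (ENSMUSG00000027552, chr3:14578641-14606309, plus strand) had 5.03, 5.31 and 5.32 FPKM in Ctrl, 6.72, 6.59 and 6.56 in Ep1, and 4.15, 6.36 and 5.31 in Ep2. The Ep1 libraries all lay above Ctrl, and the Ep2 libraries were spread around it. The log2 fold change was 0.29 in Ep1 (0.05 to 0.53, adjusted p = 0.105) and -0.00 in Ep2 (-0.24 to 0.24, adjusted p = 0.984). The fall from Ep1 to Ep2, -0.30, was called at an adjusted p of 0.0477 and was lost in 4 of 7 alternatives, at values up to 0.123, and without any one Ep1 library or Ep2 replicate 1 or 3, at values up to 0.105. E2f5 shares 26 bases with 1810022K09Rik on the opposite strand, which lay at 19.0 to 23.6 FPKM, and the strand of the counting is not given in the sources used here.

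E2f6 was the repressor that rose. E2f6 (ENSMUSG00000057469, chr12:16810963-16839742, plus strand) lacks the domains for activation and pocket protein binding. Its FPKM was 11.9, 12.6 and 12.0 in Ctrl, 13.5, 12.0 and 12.5 in Ep1, and 13.0, 14.3 and 15.2 in Ep2. The Ep2 libraries lay above all Ctrl libraries, and Ep1 overlapped both. The mean was 16.6% higher in Ep2, with a log2 fold change of 0.20 (0.06 to 0.35, adjusted p = 0.0220), and the value in Ep1 was 0.05 (-0.09 to 0.20, adjusted p = 0.617). From Ep1 to Ep2 the log2 fold change was 0.15 (0.01 to 0.29, adjusted p = 0.0808). This difference was called higher with median centring (0.0254), with voom on fragments (0.0255), without Ep1 replicate 1 (0.0456) and without Ep2 replicate 1 (0.0184). The call in Ep2 against Ctrl was lost without the filter (0.0578), without Ctrl replicate 1 (0.0687) or 3 (0.0586), and without Ep2 replicate 2 (0.0604) or 3 (0.0729).

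The atypical repressors gave the largest differences of the group, and only at the higher dose. E2f7 (ENSMUSG00000020185, chr10:110745439-110787384, plus strand) is expressed from S phase on and represses genes of the G1/S transition. Its libraries gave 4.88, 4.99 and 4.60 FPKM in Ctrl, 4.81, 4.96 and 5.27 in Ep1, and 2.59, 2.57 and 2.90 in Ep2. Ctrl and Ep1 overlapped, and Ep2 stood apart from both. The mean fell by 44.3% in Ep2, with a log2 fold change of -0.66 (-0.79 to -0.53, adjusted p = 2.5e-05), and the value in Ep1 was 0.05 (-0.09 to 0.18, adjusted p = 0.635). The difference between the doses was itself called, at -0.71 (-0.84 to -0.57, adjusted p = 2.8e-05).

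E2f8 (ENSMUSG00000046179, chr7:48866429-48881596, minus strand) acts as a dimer alone or with E2F7. Its FPKM was 11.5, 11.1 and 10.7 in Ctrl, 11.8, 11.2 and 11.9 in Ep1, and 6.15, 7.50 and 8.38 in Ep2. The pattern over the groups was that of E2f7, with a wider spread in Ep2. The mean fell by 33.9% in Ep2, a log2 fold change of -0.55 (-0.74 to -0.35, adjusted p = 0.000659), and the value in Ep1 was 0.06 (-0.14 to 0.26, adjusted p = 0.683). From Ep1 to Ep2 it was -0.61 (adjusted p = 0.000528), so E2f7 and E2f8 were the 2 DEGs among the members between the doses, where 5.90% of all tested genes were DEGs. E2f8 fell short of 0.6 there with median centring, at -0.55, without Ep1 replicate 1 or 3, at -0.599 and -0.589, and without Ep2 replicate 1, at -0.4996, which left E2f7 alone.

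Summed over each class, both activators and repressors were lower in Ep2. The summed FPKM of the activators was 50.3 ± 1.21 (Ctrl), 53.7 ± 2.15 (Ep1) and 44.9 ± 2.08 (Ep2). The repressors summed to 92.9 ± 3.61, 88.8 ± 0.590 and 76.7 ± 2.46. E2f7 and E2f8 together held 15.9 ± 0.586, 16.6 ± 0.530 and 10.0 ± 1.27 FPKM of these sums. The ratio of activators to repressors was 0.531 to 0.554 in Ctrl, 0.585 to 0.627 in Ep1 and 0.541 to 0.623 in Ep2. It was above Ctrl in all Ep1 libraries and overlapped Ctrl in Ep2, where replicate 2 stood at 0.541. The ratio weighs abundant genes most, and with the mean of log2 values per class the shift in Ep1 was 0.0236 in place of 0.156 on the log2 scale.

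The pocket protein Rbl1 was lower in Ep2 than in Ep1. Rbl1 (ENSMUSG00000027641, chr2:157145893-157204534, minus strand) encodes p107, which binds E2F4 and is itself a cell cycle gene. Its FPKM was 9.66, 9.15 and 10.5 in Ctrl, 11.0, 11.1 and 11.5 in Ep1, and 9.03, 8.23 and 7.998 in Ep2. All Ep1 libraries lay above and all Ep2 libraries below Ctrl, a pattern that 2.41% of all tested genes showed. The log2 fold change was 0.18 in Ep1 (0.05 to 0.32), which was not called at an adjusted p of 0.0774. In Ep2 it was -0.19 (-0.32 to -0.06) and was called at an adjusted p of 0.0220. The call in Ep2 was lost with median centring (0.0651), without the filter (0.0551), with only the 2 groups fitted (0.0506), without Ctrl replicate 1 (0.0502) or 3 (0.0773), and without Ep2 replicate 2 (0.0648) or 3 (0.0703). The difference between the doses was -0.37 (-0.51 to -0.24, adjusted p = 0.000941) and was called in all 7 alternatives and all 6 fits without a library.

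Rb1 (ENSMUSG00000022105, chr14:73183673-73325822, minus strand), which encodes the retinoblastoma protein, was low throughout. The libraries gave 1.04, 0.731 and 0.958 FPKM in Ctrl, 1.05, 1.10 and 1.07 in Ep1, and 1.34, 0.844 and 1.36 in Ep2. Every Ep1 library was above Ctrl by a small margin, and the Ep2 libraries were on both sides of it. The log2 fold change was 0.12 in Ep1 (-0.14 to 0.39, adjusted p = 0.521) and 0.19 in Ep2 (-0.08 to 0.45, adjusted p = 0.211). Without Ep2 replicate 2, at 0.844, the Ep2 value was called at an adjusted p of 0.0415 by limma. That fit leaves out the lowest Ep2 library. In Ctrl, Rb1 reached the 1 FPKM of the filter in replicate 1 alone. It thus passed the filter only through treated libraries, where its means were higher, and neither this call nor the position of Ep1 above Ctrl is support for a rise. Rb1 lies across from Rcbtb2 (2.96 to 4.84 FPKM) and Lpar6 (1.32 to 1.99 FPKM) on the opposite strand, so its level is uncertain.

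The genes that E2F factors are known to activate were lower in Ep2 and nearly level in Ep1. The list held 32 genes for DNA replication, nucleotide supply and the cell cycle, all of them tested, of which Ccne1, Ccne2 and Mybl2 also stand in another list. In Ep2 all 32 were called lower, 21 of them as DEGs, beside 29.3% called lower and 5.87% lower DEGs in all. Their median log2 fold change was -0.92, against -0.03 over all tested genes. Tk1, thymidine kinase, was at -1.32 (adjusted p = 2.5e-06), Ccne1, cyclin E1, at -1.26 (4.3e-05), Cdc6, which loads the replicative helicase, at -1.23 (1.2e-05) and Tyms, thymidylate synthase, at -1.21 (9.7e-06). Cdk1, Ccna2, Cdc6, Cdc45, Mcm4, Mcm5 and Mcm7 of this list are also among the genes that the study picked from these libraries. An E2F target set was also among the leading sets for the study's down-regulated genes. The list as a whole was chosen with earlier results of these data known, so the count is not independent evidence of a direction. Mcm4 and Cdc45 were at -0.447 and -0.452 in Ep2, whereas the study's table of its picked genes, which names no dose, marks both as up-regulated. In Ep1 the median of the list was 0.04, and 1 gene was called higher and 0 lower by limma. Over all tested genes, 6.32% were called higher and 4.97% lower. At an unadjusted p under 0.05 there were 4 higher and 4 lower, for which no share of all genes was computed. With voom on fragments 3 were called lower, where 1946 of 14112 genes were called in either direction. Between the doses all 32 were called lower, with a median of -0.83 and 24 DEGs, beside 3.97% lower DEGs in all. The E2F letter pattern was found for 18 of the 26 list genes with a start site window, beside 10.9% of all 27025 genes with a window. The list was made of known E2F targets, so this count describes the list and no result of the treatment.

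**Figure D4:**
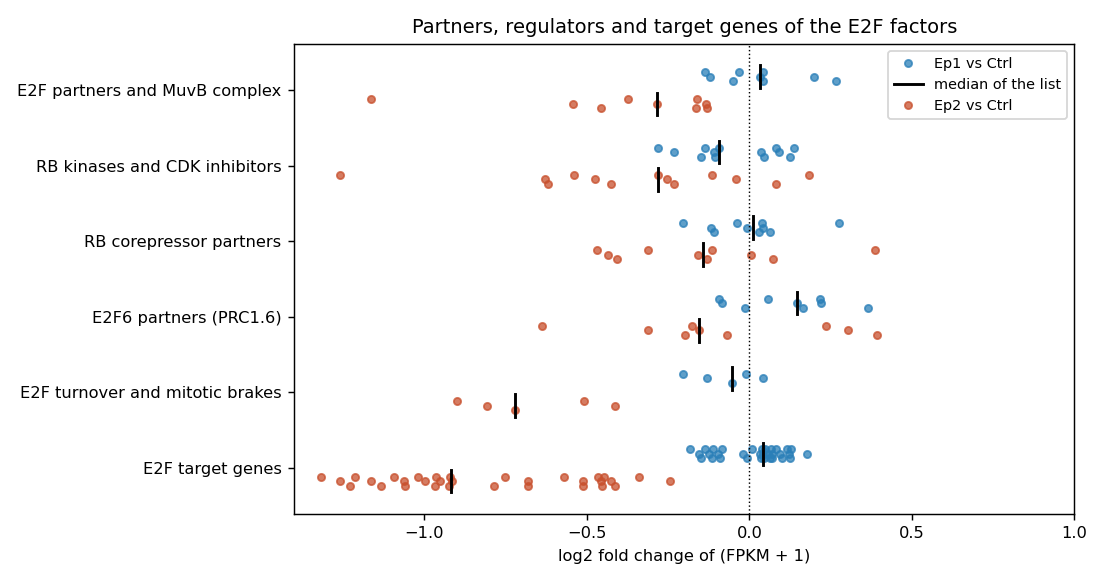
Log2 fold change of (FPKM + 1) on the horizontal axis for each tested gene of 6 lists, in Ep1 (blue) and Ep2 (red) against Ctrl, with black bars at the median of each list. The 32 E2F target genes lie around a median of 0.04 in Ep1 and of -0.92 in Ep2, and the medians of the other lists in Ep2 run from -0.72 to -0.14.

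Transcripts of the proteins that work with E2F factors were lower in part. Of 9 genes for DP partners and the MuvB complex, 6 were called lower in Ep2, beside 29.3% of all tested genes, with a median of -0.28 against -0.03 over all. Mybl2, the B-MYB subunit that turns MuvB into an activator, was at -1.16 (adjusted p = 1.5e-06), followed by Foxm1, a factor for mitotic genes, at -0.54 (5.4e-05) and Tfdp1, the DP1 partner that activator E2Fs need, at -0.46 (3.5e-05). Lin52 was at -0.37 (0.0190), a call that was lost without the filter (0.0515), without Ctrl replicate 1 or 2 and without Ep2 replicate 1 or 3 (0.0506 to 0.0668). In Ep1 2 of the 9 were called higher, beside 6.32% of all tested genes, and the median was 0.03.

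Upstream of the pocket proteins, 13 of 14 genes for RB kinases and inhibitors of CDKs were tested. In Ep2 8 of them were called lower, beside 29.3% of all tested genes, with a median of -0.28, and the calls included kinase subunits and inhibitors alike. Ccne1, which also stands in the list of target genes, had the largest difference. Ccnd3, cyclin D3, was at -0.62 (adjusted p = 8.0e-05), whereas the inhibitors Cdkn2d and Cdkn2c were at -0.63 (0.00329) and -0.54 (0.000364). In Ep1 1 of the 13 was called, which was lower, beside 4.97% of all tested genes, and the median was -0.09.

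Corepressors recruited by RB were mixed. Of 10 genes, 6 were called lower and 1 higher in Ep2, with a median of -0.14, where 29.3% of all tested genes were called lower and 23.9% higher. Sin3a, a scaffold for histone deacetylases, was at -0.47 (adjusted p = 0.000716), the deacetylase Hdac1 at -0.44 (4.4e-05) and the remodelling ATPase Smarca4 at -0.41. Kdm5a, a histone demethylase, was the gene called higher, at 0.39. In Ep1 1 of the 10 was called, which was higher and is close to the 11.3% called in all, and the median was 0.01.

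Of 9 genes for partners of E2F6 in the variant Polycomb complex PRC1.6, 3 were called higher and 3 lower in Ep2, with a median of -0.15. These counts are near the 23.9% higher and 29.3% lower of all tested genes. L3mbtl2 was at -0.64 (adjusted p = 1.7e-05) and Ring1 at -0.31. Mga, the scaffold of the complex, was at 0.39, and Rybp at 0.30 (adjusted p = 0.0312). The call of Rybp was lost without the filter (0.0866), with only the 2 groups fitted (0.0522), without Ctrl replicate 1 or 2 and without Ep2 replicate 2 or 3 (0.0685 to 0.111). In Ep1 2 of these 9 were called higher, beside 6.32% of all tested genes, with a median of 0.15. The 9 germline genes known to be silenced by E2F6 stayed untested, since their highest value in any library was 0.1204 FPKM.

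All 5 genes of a list on E2F protein turnover and mitotic brakes were called lower in Ep2, beside 29.3% of all tested genes, with a median of -0.72. Fzr1, a coactivator of the APC/C ubiquitin ligase, was at -0.90 (adjusted p = 6.1e-05), Fbxo5, an inhibitor of the same ligase, at -0.81 (5.9e-06), Ccnf, cyclin F, at -0.72 (6.6e-06) and Cks1b at -0.51 (4.1e-05). Genes that promote and genes that oppose this ligase were thus both lower. In Ep1 the median was -0.05, and 1 gene had an unadjusted p under 0.05, which limma did not call after adjustment. No share of all genes was computed at the unadjusted threshold.

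Across the 9 libraries, the genes most like the member with the largest Ep2 change in each class were sought among 7244 genes by Pearson's r of log2(FPKM + 1). The 9 points fall into 3 groups, so r mostly follows the group means and is given as a description. For E2f7 these were Pa2g4 (0.996), Pola1 (0.995) and Prc1 (0.995). Pola1, the catalytic subunit of DNA polymerase alpha, stood at mean levels of 6.50, 7.20 and 2.84 FPKM over the groups. For E2f1 they were BC055324 (0.991), Dus3l (0.985) and Dpy30 (0.983), which had means of 47.3, 44.5 and 34.4 FPKM. For Rbl1 they were Gm10357 (0.974), Eif2a (0.973) and Pdcl (0.971), with Eif2a at 22.3, 24.0 and 20.4 FPKM.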

How the data were processed

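Total RNA from B.END3 cells was sequenced as 9 libraries, and groups were taken from the library names. The deposited tables hold 1 FPKM value per gene and library, which the authors had scaled for gene length and library size. The submitters' processing notes name Bowtie 0.12.2 and mm8 and the paper's methods GRCm39, but the listed positions overlap GRCm38.p6 for 99.9% of 37620 genes compared (all 10 members) and GRCm39 for 12.4% of 36414, so GRCm38 is used here. The counting tool is not given in the sources used here. FPKM times length gave whole fragments to within 0.05 of a whole number, from which depth was taken.

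Genes reaching 1 FPKM in 3 or more libraries were kept, and log2(FPKM + 1) was tested with limma 3.58.1 in R 4.3.3 (1 model over all libraries, eBayes with trend and robust estimation, Benjamini-Hochberg adjustment per comparison over all 11727 genes). Calls had an adjusted p below 0.05, and DEGs also an absolute log2 fold change above 0.6. The fit was repeated with voom on recovered fragments (10 or more in 3 libraries), after centring on the median, with the filter removed or raised to 5 FPKM, with a smaller pseudocount (0.1), with the replicate number as a block, on 2 groups at a time, and without each library in turn. All members are named, and of each list the 4 genes called in Ep2 against Ctrl with the largest absolute change, plus the largest opposite one called. The members and lists were chosen with earlier results of these data known. Promoter windows and start sites are from RefSeq for GRCm38.p6, matched by symbol, and were not found for E2f4, E2f5 and Rb1. Figures were drawn with matplotlib 3.10.9.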

Additional observations from a re-analysis of the deposited data

Results flagged for a closer look

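Rbl1 was singled out because all 3 Ep1 libraries lay above and all 3 Ep2 libraries below the Ctrl libraries, a pattern that 283 tested genes (2.41%) showed. The difference between the doses was a log2 fold change of -0.37 (limma, adjusted p = 0.000941), which does not test the signs against Ctrl. The flag already required all Ep2 libraries to lie below all Ep1 libraries, so this p-value adds no support to it. Against Ctrl, the Ep1 value was not called (adjusted p = 0.0774), and the call in Ep2 (0.0220) was lost in 3 of 7 alternatives and in 4 of 6 fits without a library.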

How the results depend on the processing

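E2f1, E2f2, E2f3, E2f4, E2f7 and E2f8 kept their calls in Ep2 against Ctrl under every alternative that tested them and without any one library, and so did E2f3 in Ep1 (adjusted p up to 0.0437). E2f7 and Rb1 were below the stricter filter and have no value there. With voom on fragments 3 members were called in Ep1 (E2f2, E2f3 and E2f4) and with only the groups compared 5 (also E2f5 and Rbl1), in place of 1. More genes were also called in all, at 1946 of 14112 and 2217 of 11345 against 1324 of 11727. E2F target genes called lower in Ep1 numbered 3 with voom and 2 with only the groups compared, and 0 to 1 without a library (1 without Ctrl replicate 3). The activator to repressor shift in Ep1 was 0.0236 with mean log2 values. Signs turned for 2 values near 0. E2f5 in Ep2 against Ctrl was 0.04 with median centring, 0.0103 with voom and -0.13 to 0.13 without a library, and E2f3 in Ep2 against Ep1 ran from -0.15 to 0.00725 without a library. E2f6 in Ep2 against Ep1, at 0.15, was called higher with median centring, with voom, without Ep1 replicate 1 and without Ep2 replicate 1. The causes were not tested. With the replicate block 1, 8 and 7 members were called in Ep1, Ep2 and Ep2 against Ep1, the same members as without it. Same-numbered libraries correlated at -0.0565 to 0.0744 in their deviations from the group means, so the numbers were not taken as pairs. Few fragments limit Rb1 (86 to 154 per library) and E2f5 (141 to 221).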
